A study of Mus musculus with 2 samples.

Results

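The genes of Kupffer cells, the resident macrophages of the liver, and of macrophages more widely were followed as a group of 32 genes in polyA-selected RNA of mouse liver. The members are the rows of the deposited gene and transcript tables whose gene identifier belongs to 1 of 32 listed symbols, and all 32 were found among 43346 Ensembl genes. The tissue was the whole liver of 1 adult female C57BL/6J mouse aged 10 weeks, with no allele, agent or diet stated in the labels. There are 2 libraries of that animal, named here library 1 and library 2 after their technical replicate numbers. They form 1 group, so the values answer how abundant each macrophage gene was in this liver and how well a second library of the same animal returned its level. Any mean and SD rests on these 2 libraries (n = 2), so it shows technical spread and nothing of how animals vary.

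Kupffer cells line the liver sinusoids, where they take up bacteria, spent red blood cells and complement-coated particles from portal blood. They arise largely from embryonic precursors and renew themselves in place, and they are told from recruited blood monocytes by surface receptors such as Clec4f, Vsig4 and Timd4. Macrophages in general depend on signalling through the receptor Csf1r, and many of their activating receptors carry no signalling tail and pair with the adaptors Tyrobp or Fcer1g. In whole tissue, fewer cells of a type and less RNA per cell cannot be told apart.

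Expected counts, the estimated reads or fragments per gene, totalled 23309905 for library 1 and 19525500 for library 2. Nuclear protein-coding genes held 37.6% of all TPM (a length-normalised relative abundance) in library 1 and 73.7% in library 2, and mitochondrial genes with their nuclear copies most of the rest. TPM values of nuclear genes thus share a smaller total in library 1. The 2 libraries are compared below on counts scaled by TMM (trimmed mean of M values), which centres the bulk of the genes. The labels give a date for library 2 and none for library 1, so a library difference and a difference of date or handling cannot be told apart.

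Most of the macrophage genes were present at low to moderate levels. At 1 TPM or more, 25 members were detected in library 1, 27 in library 2 and 23 in both. Among nuclear protein-coding genes, 40.1% reached that level in library 1 and 49.8% in library 2. The median member stood at 2.21 TPM in library 1 and 6.78 in library 2. Itgam, Cx3cr1 and Trem2 stayed under 1 TPM in both libraries. The deposited upper bounds of TPM were above 1 for Itgam in both libraries (1.68 and 2.59) and for Trem2 in library 2 (1.54). Marco, Slc15a3, Cd14 and Fcgr1 passed 1 TPM in library 2 alone, and Tlr4 and Ccr2 in library 1 alone.

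Hpgd, the enzyme that inactivates prostaglandins (ENSMUSG00000031613.8, GRCm38 chromosome 8, 56294585 to 56321043, plus strand), led the group with 237 TPM in library 1 against 169 in library 2 (mean 203 ± 48.1, SD, n = 2). Lyz2, the lysozyme of macrophages and other myeloid cells, followed with 29.2 and 80.5 TPM. Clec4f, a galactose-binding lectin of rodent Kupffer cells (ENSMUSG00000014542.2, chromosome 6, 83644542 to 83656187, minus strand), read 7.82 and 59.6 TPM. Cd5l, a secreted protein that circulates bound to IgM, read 13.3 and 54.0 TPM, and Vsig4, a receptor for complement C3 fragments (ENSMUSG00000044206.3, chromosome X, 96247203 to 96293438, minus strand), 38.2 and 28.6. The 5 highest genes of each library held 83.1% of the members' summed TPM in library 1 and 69.6% in library 2. In library 1 they were the genes named here, and in library 2 Tyrobp (30.3 TPM) took the place of Vsig4. Hpgd alone held 60.5% and 29.9%. In whole liver, the cell types that gave the RNA of Hpgd, or of any other member, cannot be told from these values.

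The order of the members was kept only in outline. The 5 highest members of each library shared 4 genes and the 10 highest shared 7, and the Spearman correlation of member TPM between the libraries was 0.82 across the 32 genes. In 28 of 31 pairs of neighbours in the order by mean TPM, the ranges over the 2 libraries overlapped, so those neighbours are not separated. The ranges were apart between Hpgd and Lyz2, between Timd4 and Ptprc, and between Ccr2 and Trem2. Vsig4 held place 2 in library 1 and place 6 in library 2, while Tyrobp moved from place 15 to place 5. All members together made up 0.0392% of TPM in library 1 and 0.0565% in library 2. Without Hpgd the shares were 0.0155% and 0.0396%. Of nuclear protein-coding TPM alone, all members made up 0.104% in library 1 and 0.0766% in library 2, which is the other direction. With Hpgd left out of that measure the shares were 0.0412% and 0.0537%.

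**Figure D1:**
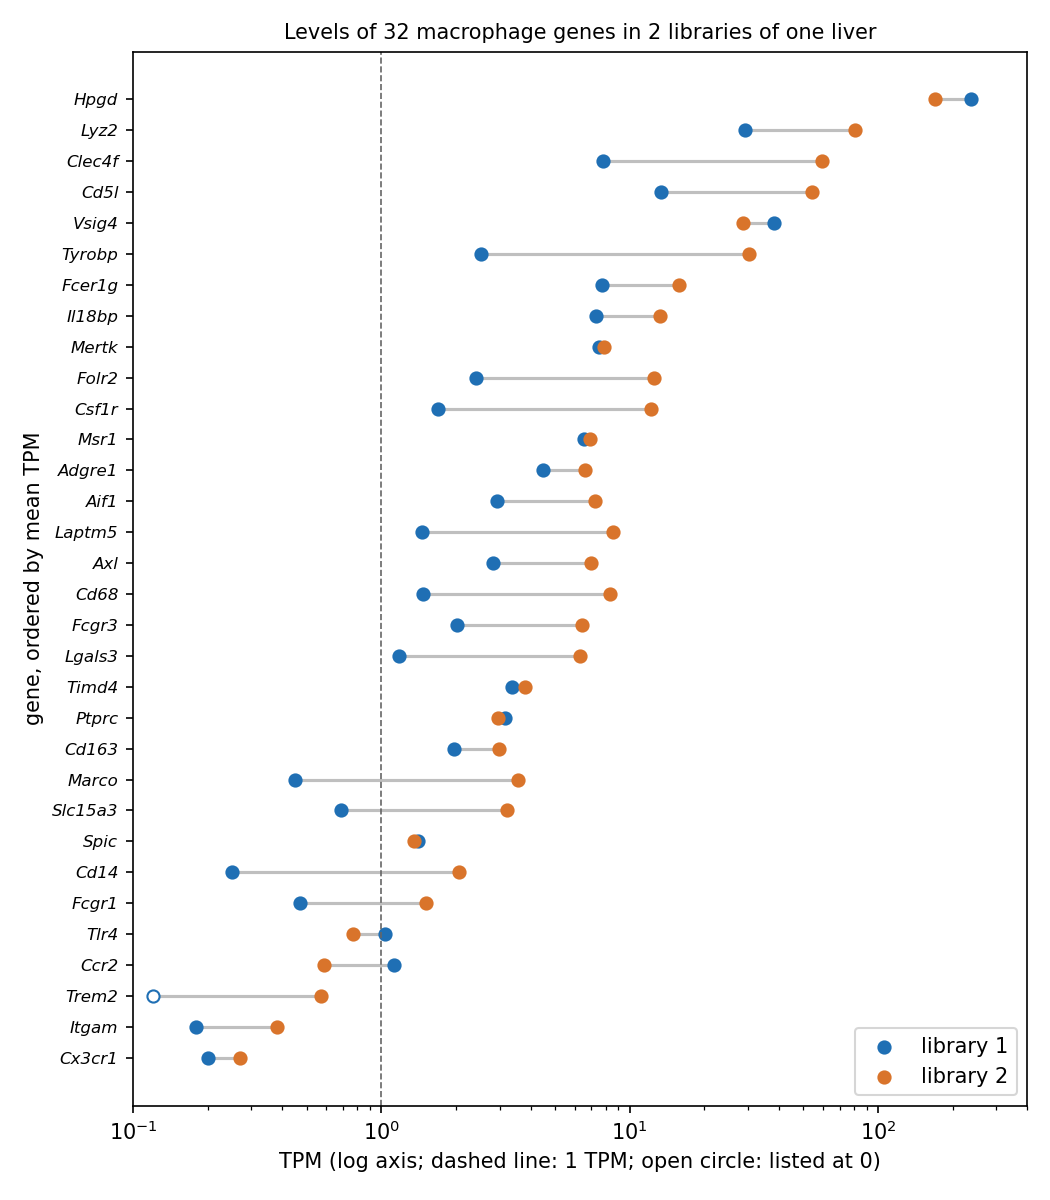
TPM of each of the 32 macrophage genes (log axis) in library 1 (blue) and library 2 (orange), ordered by mean TPM, with the dashed line at 1 TPM and an open circle for a gene listed at 0. Hpgd is highest in both libraries, and most genes below it lie further right in library 2, with Vsig4, Ptprc, Spic, Tlr4 and Ccr2 among the exceptions.

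Between the libraries, 31 members had a summed count of at least 20 and were tested. By two-sided exact binomial tests on TMM-scaled counts, adjusted over 12728 genes and called where the log2 fold reached 1 in either direction, 11 members were higher in library 2. Over all tested genes 32.6% were called higher. Another 7 members were lower in library 2, against 23.6% of all tested genes, and 13 were not called. Scaled by total count instead, 15 members were called higher (41.8% of all genes) and 1 lower (7.46%). Members and other genes were thus called about as often, since 56.3% of all genes were called in either direction under TMM. The median log2 fold of the members was 0.39, beside 0.04 over all tested genes, and the median size of the fold was 1.13 beside 1.15. These tests compare 2 libraries of 1 animal and measure counting error only.

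Direction followed base composition. The 11 members higher in library 2 had a transcript GC content of 51.5% to 58.4% (median 54.2%), and the 7 lower members 38.6% to 44.6% (median 40.6%). The 13 members not called lay between them in the main, at 44.4% to 54.2% (median 49.3%). Across the 31 tested members the Spearman correlation of log2 fold with GC content was 0.89, and over 12070 genes with a GC value it was 0.91. The points share the same 2 libraries, so the value is a description. The GC ranges of all called genes were not compared, so the gap between the members' ranges is not read as particular to them. Once a curve of fold on GC content, fitted over nuclear genes, was subtracted, 0 members were called higher (6.64% of all genes) and 3 lower (7.35% of all genes), namely Axl, Lgals3 and Slc15a3. The median size of the members' fold was then 0.39, beside 0.37 over all genes. The same exact binomial test without the curve gave the 11 and 7 calls above.

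**Figure D2:**
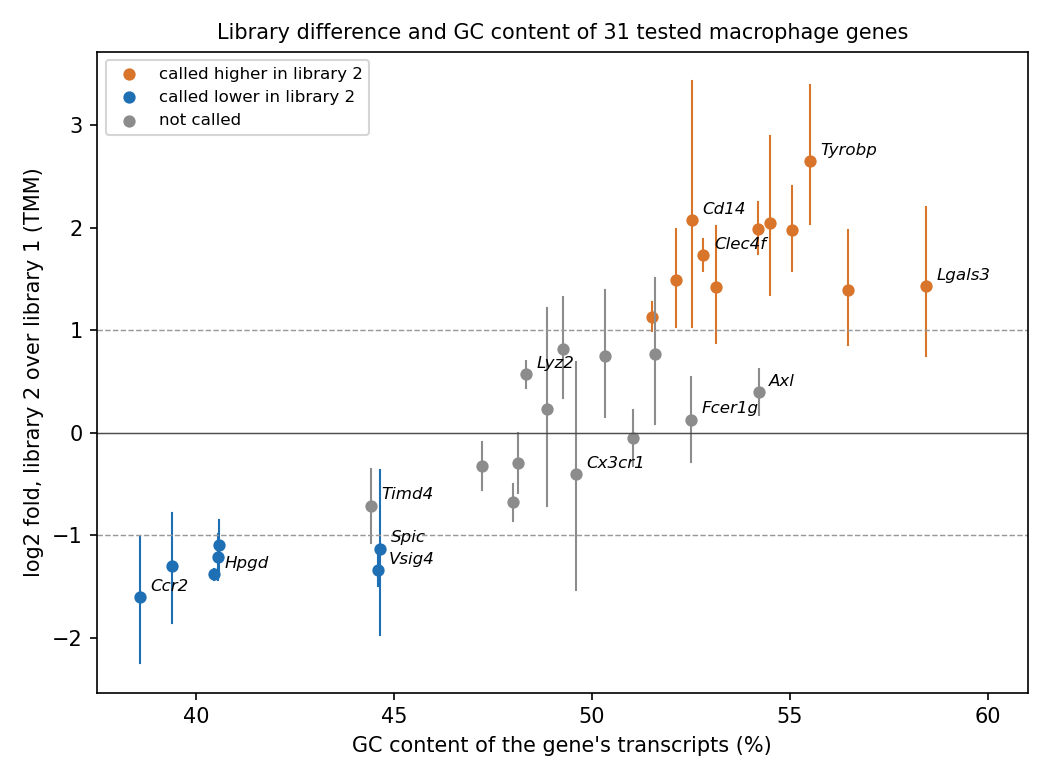
Log2 fold of library 2 over library 1 (TMM) against the GC content of the gene's transcripts for the 31 tested macrophage genes, with exact binomial 95% intervals (counting error only) and dashed lines at the fold threshold. Genes called higher (orange) lie at 51.5% GC or above and genes called lower (blue) at 44.6% or below.

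Stretches of 150 coding bases show what this range of composition looks like in members on either side. G and C are in capitals, and the sequences are from GENCODE M21 (GRCm38), 5′ to 3′. Each is the window of the coding sequence whose GC content is nearest to that of the whole transcript, a rule set after other windows had been seen, so the windows illustrate the composition and support nothing. In windows from the middle of the coding sequence, Clec4f and Hpgd did not differ (47.3% GC each). The windows below hold 83 G or C bases in Tyrobp and 78 in Clec4f, both called higher in library 2, and 67 in Vsig4 and 61 in Hpgd, both called lower.
Tyrobp: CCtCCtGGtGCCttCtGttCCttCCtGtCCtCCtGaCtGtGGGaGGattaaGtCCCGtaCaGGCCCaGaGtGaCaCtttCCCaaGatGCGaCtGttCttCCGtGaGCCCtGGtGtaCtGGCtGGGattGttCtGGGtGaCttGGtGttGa
Clec4f: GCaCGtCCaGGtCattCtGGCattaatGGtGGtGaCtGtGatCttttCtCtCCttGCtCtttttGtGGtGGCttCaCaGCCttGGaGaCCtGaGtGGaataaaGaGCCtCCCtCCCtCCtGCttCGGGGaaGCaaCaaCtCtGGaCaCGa
Vsig4: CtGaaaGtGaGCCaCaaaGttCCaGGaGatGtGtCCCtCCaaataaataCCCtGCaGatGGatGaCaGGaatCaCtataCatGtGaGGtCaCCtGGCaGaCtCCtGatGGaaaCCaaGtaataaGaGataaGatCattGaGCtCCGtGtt
Hpgd: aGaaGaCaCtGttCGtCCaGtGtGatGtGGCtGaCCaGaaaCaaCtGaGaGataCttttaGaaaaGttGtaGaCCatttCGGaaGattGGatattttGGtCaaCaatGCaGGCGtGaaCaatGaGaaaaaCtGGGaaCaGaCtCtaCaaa

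The receptors and the secreted protein by which Kupffer cells are recognised split along the same line. Of 7 members, 4 were called higher in library 2 (32.6% over all tested genes), 1 lower (23.6%) and 2 not. With the GC curve subtracted 0 were called in either direction (14.0% of all genes). Clec4f had 408 counts in library 1 and 1695 in library 2, a log2 fold of 1.73 (95% interval 1.58 to 1.89). Cd5l had 563 and 1541 counts (log2 fold 1.13). Vsig4 moved against both, with 1082 counts in library 1 and 535 in library 2 (log2 fold -1.34, interval -1.49 to -1.19). The TPM of Vsig4 was therefore 4.88 times that of Clec4f in library 1 and 0.480 times in library 2, and which of these Kupffer cell receptors appeared the more abundant depended on the library.

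Folr2, the folate receptor beta of resident macrophages, read 2.40 TPM in library 1 against 12.6 in library 2 and was called higher (log2 fold 1.49). Marco, a scavenger receptor that binds bacteria, read 0.45 and 3.54 TPM, from 18 and 95 counts, and was called higher (log2 fold 2.05, interval 1.34 to 2.89). Timd4, the phosphatidylserine receptor of long-lived resident macrophages, read 3.35 and 3.79 TPM and was not called (log2 fold -0.71). Cd163, the receptor for haemoglobin bound to haptoglobin, read 1.97 and 2.99 TPM and was not called (log2 fold -0.29, adjusted p = 0.061 by the exact binomial test). Timd4 and Cd163 were both under Vsig4 in each library.

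Genes shared by macrophages of many tissues were all detected in both libraries, 8 of 8. Of them 4 were called higher in library 2 (32.6% over all tested genes), 1 lower (23.6%) and 3 not. With the GC curve subtracted 0 were called higher (6.64% of all genes) and 1 lower (7.35%). Csf1r, the receptor for the growth factors Csf1 and Il34, read 1.69 TPM in library 1 against 12.2 in library 2 (157 and 781 counts, log2 fold 1.99). Laptm5, a lysosomal membrane protein of blood cells, read 1.46 and 8.54 TPM (log2 fold 1.98). Cd68, a lysosomal glycoprotein, read 1.47 and 8.32 TPM (log2 fold 1.42), and Lgals3, the galactose-binding galectin 3, 1.18 and 6.29 TPM (log2 fold 1.43). These 4 were the members of the set that were called higher.

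Adgre1, which codes for the macrophage antigen F4/80, had the same count in both libraries. It had 311 counts in each library, read 4.46 and 6.61 TPM, and was not called (log2 fold -0.32). Aif1, the actin-binding protein Iba1, read 2.92 and 7.27 TPM from 34 and 72 counts and was not called (log2 fold 0.75). Lyz2 had 721 and 1340 counts and was not called (log2 fold 0.57). Its near-identical neighbour Lyz1, which intestinal Paneth cells express, had 7 and 5 counts. Ptprc, the leukocyte phosphatase CD45, read 3.16 and 2.94 TPM and was called lower (log2 fold -1.10). The ratio of Clec4f to Ptprc, a Kupffer cell gene over a gene of all leukocytes, was 2.47 in library 1 and 20.3 in library 2.

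Among receptors for antibody and lipid and the adaptors they signal through, the adaptor Tyrobp had the largest fold of any tested member. Tyrobp (ENSMUSG00000030579.9, chromosome 7, 30413760 to 30417585, plus strand) read 2.53 TPM in library 1 against 30.3 in library 2, from 22 and 176 counts (log2 fold 2.65, interval 2.03 to 3.39). Fcer1g, the common gamma chain that pairs with Fc receptors, read 7.77 and 15.8 TPM and was not called (log2 fold 0.13, interval -0.28 to 0.54). The ratio of Fcer1g to Tyrobp was 3.07 in library 1 and 0.523 in library 2. Which adaptor was the more abundant in this liver thus differed with the library.

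Fcgr3, a low-affinity receptor for IgG, read 2.01 and 6.44 TPM, and Fcgr1, the high-affinity receptor, 0.47 and 1.51. Neither was called (log2 folds 0.82 and 0.77). Their ratio was the most stable of 13 pairs compared, at 4.28 in library 1 and 4.26 in library 2. Fcgr3 shares sequence with Fcgr2b, which sinusoidal endothelium also expresses and which had 1745 and 1072 counts. The SD that the deposited tables give for the count of Fcgr3 was 0.23 and 0.51 counts. Trem2, a lipid-sensing receptor that signals through Tyrobp, had 0 counts in library 1 and 9 counts in library 2 (0.57 TPM). A fixed floor of 3 counts would stand for 0.0783 TPM in library 1. The upper end of the 95% exact interval of that 0 count was higher, at 3.69 counts. The deposited TPM intervals of Trem2 overlapped, at 0.0241 to 0.505 in library 1 and 0.367 to 1.54 in library 2. Trem2 was not tested, since its summed count was under 20.

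Pattern recognition and scavenger receptors fell on both sides. Cd14, which hands bacterial lipopolysaccharide to Tlr4, read 0.25 TPM in library 1 against 2.06 in library 2, from 8 and 44 counts, and was called higher (log2 fold 2.08, interval 1.03 to 3.43). Tlr4, the signalling receptor, read 1.03 and 0.77 TPM and was called lower (log2 fold -1.30). Tlr4 over Cd14 was 4.12 in library 1 and 0.374 in library 2. Ly96, the subunit that binds lipopolysaccharide beside Tlr4, read 14.8 and 8.02 TPM, and Lbp, the plasma protein that delivers it, 26.8 and 60.8. Msr1, the class A scavenger receptor, read 6.52 and 6.95 TPM but was called lower on scaled counts (477 and 258 counts, log2 fold -1.21). Its deposited TPM includes a shift of isoforms described below.

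The receptor kinases Mertk and Axl, which bind apoptotic cells through bridging ligands, were present in both libraries and neither was called. Mertk read 7.53 and 7.86 TPM (log2 fold -0.68) and Axl 2.82 and 7.02 (log2 fold 0.39). Mertk over Axl was 2.67 in library 1 and 1.12 in library 2, so Mertk was the higher in both. Pros1 (protein S, also a plasma anticoagulant), a ligand of Mertk, read 27.5 and 20.1 TPM, and Gas6, a ligand of both, 0.91 and 17.5. Pros1 was called lower and Gas6 higher in library 2 (log2 folds -1.33 and 3.36).

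Receptors of recruited monocytes stood at the foot of the order. Ccr2, which draws monocytes out of bone marrow, read 1.12 TPM in library 1 against 0.59 in library 2 and was called lower (log2 fold -1.60). Cx3cr1, high on patrolling monocytes, read 0.20 and 0.27 TPM from 16 and 15 counts. Itgam, the integrin CD11b of monocytes and neutrophils, read 0.18 and 0.38 TPM from 17 and 25 counts. With so few counts the 95% intervals of their log2 folds ran from -1.53 to 0.69 for Cx3cr1 and from -0.71 to 1.21 for Itgam, so no difference between the libraries was detectable at this depth. Both TPM values of Itgam lay below their own deposited bounds, 0.278 to 1.68 in library 1 and 0.507 to 2.59 in library 2. A transcript that is not in GENCODE M21 held 100% of the TPM of Itgam in library 1 and 63.2% in library 2. Clec4f was 6.98 times Ccr2 in library 1 and 101 times in library 2.

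The last members are an enzyme, a transcription factor, a transporter and a secreted cytokine binder. Hpgd had 8301 counts in library 1 and 3995 in library 2 and was called lower (log2 fold -1.38, interval -1.43 to -1.32). Spic, the ETS-family factor known for iron-recycling macrophages, read 1.40 and 1.35 TPM from 39 and 22 counts and was called lower (log2 fold -1.13, interval -1.97 to -0.36). Slc15a3, a lysosomal peptide and histidine transporter, read 0.69 and 3.22 TPM and was called higher (log2 fold 1.39). Il18bp, which neutralises the cytokine Il18, read 7.35 and 13.2 TPM and was not called (log2 fold -0.05). Il18 itself read 35.6 and 16.4 TPM.

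Spic and its relative Spi1 (PU.1) bind DNA at a purine-rich core, and the letters GAGGAA were searched on both strands in the 250 bases before each start in a RefSeq promoter table (GRCm38.p6), which matched 25 of 32 members. In 13 of the 25 a window overlapped the gene's own span in GENCODE M21, so not all windows lie before the first annotated start. The letters occurred in 13 of the 25 (52.0%) and in 25.9% of 27025 genes. A longer form with GT after it occurred in 0 of the 25 members and 2.79% of all genes. A match is a description of these letters and does not show binding. Of the 5 highest members by mean TPM, Hpgd, Vsig4 and Cd5l hold a match, and Lyz2 and Clec4f hold none. The promoters of Vsig4 and Cd5l are shown as examples, picked after the matches were known. Capitals mark the match, which lies on the strand shown in Vsig4 (chrX:96293439-96293688, minus strand) and on the other strand in Cd5l (chr3:87357631-87357880, plus strand).
Vsig4: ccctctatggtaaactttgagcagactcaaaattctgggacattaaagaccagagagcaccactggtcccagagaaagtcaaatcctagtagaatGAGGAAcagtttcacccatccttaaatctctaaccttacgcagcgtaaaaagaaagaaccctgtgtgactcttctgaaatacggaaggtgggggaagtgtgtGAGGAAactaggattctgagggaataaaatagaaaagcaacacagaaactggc
Cd5l: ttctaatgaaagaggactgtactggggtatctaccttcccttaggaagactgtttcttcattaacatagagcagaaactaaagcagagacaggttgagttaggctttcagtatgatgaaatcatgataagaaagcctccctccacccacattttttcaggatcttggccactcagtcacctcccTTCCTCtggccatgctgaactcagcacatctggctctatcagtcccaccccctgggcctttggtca

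Isoform shares add a second view of the same genes. Of 9 members with a mean TPM of at least 5, several annotated transcripts and signal in both libraries, 7 had the same leading isoform in both and 2 did not. Over all genes treated the same way, 31.9% of 5129 changed their leading isoform. Csf1r changed by a narrow margin between its 2 coding isoforms, with Csf1r-201 at 52.1% of the gene's TPM in library 1 and 42.1% in library 2. In library 1 Csf1r-201 had 73.8 counts and Csf1r-202 had 83.2, each with a deposited SD of 29.2. The lead there lay within that SD, and by expected count Csf1r-202 led in both libraries. In Mertk, the non-coding processed transcript Mertk-202 led in library 1 with 53.1% and fell to 30.2% in library 2, where the coding Mertk-201 led with 69.8%. By expected count Mertk-201 led in both libraries, with 332 counts against 233 in library 1.

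Among these 9 members, shares moved most in Msr1, Aif1, Clec4f, Mertk and Laptm5. Msr1-202 held 88.4% of Msr1 in library 1 and 51.8% in library 2, with Msr1-201 taking up the difference. Aif1-203, a coding isoform, went from 61.1% to 96.6%, and a retained-intron isoform of the gene from 38.9% to 3.40%. That retained-intron isoform had only 7.23 counts in library 1 (deposited SD 3.94) and 1.05 in library 2 (SD 4.06). Clec4f was assigned wholly to the coding isoform Clec4f-201 in library 1, while in library 2 the short processed transcript Clec4f-202 was given 23.5%. Laptm5-207, also coding, went from 72.1% to 92.8%. Vsig4, Adgre1 and Fcer1g kept at least 90% in 1 isoform in both libraries. Shares of single isoforms depend on how shared reads were divided, and the deposited SD for Clec4f-202 was 1.60 counts in library 1 and 18.7 in library 2, beside 90.5 counts assigned there.

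A comparison added after these values were seen set the isoform that gained most share in library 2 against the one that lost most. It covered 17 members with at least 20 counts in each library and a change of at least 1 percentage point both ways. In 15 of the 17 the gaining isoform had the higher GC content, as it did in 76.9% of 6114 genes overall. Laptm5 had the widest gap, at 9.40 percentage points of GC, and Msr1 the next, at 7.21. The losing isoform of Laptm5 had 2 counts in each library, so its share changed while its count did not. Fcgr3 and Fcer1g went the other way, by 0.39 and 0.69 points. Ptprc, Spic and Fcgr3 are among the 17 at a lower level: the retained-intron isoform Ptprc-201 went from 61.3% to 24.8%, Spic-202, annotated for nonsense-mediated decay, from 65.3% to 12.1%, and the retained-intron Fcgr3-203 from 52.1% to 0%. These 3 were singled out after their values were seen. Spic had 39 and 22 counts in all, Fcgr3 52.1 and 115, and Ptprc 363 and 212.

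**Figure D3:**
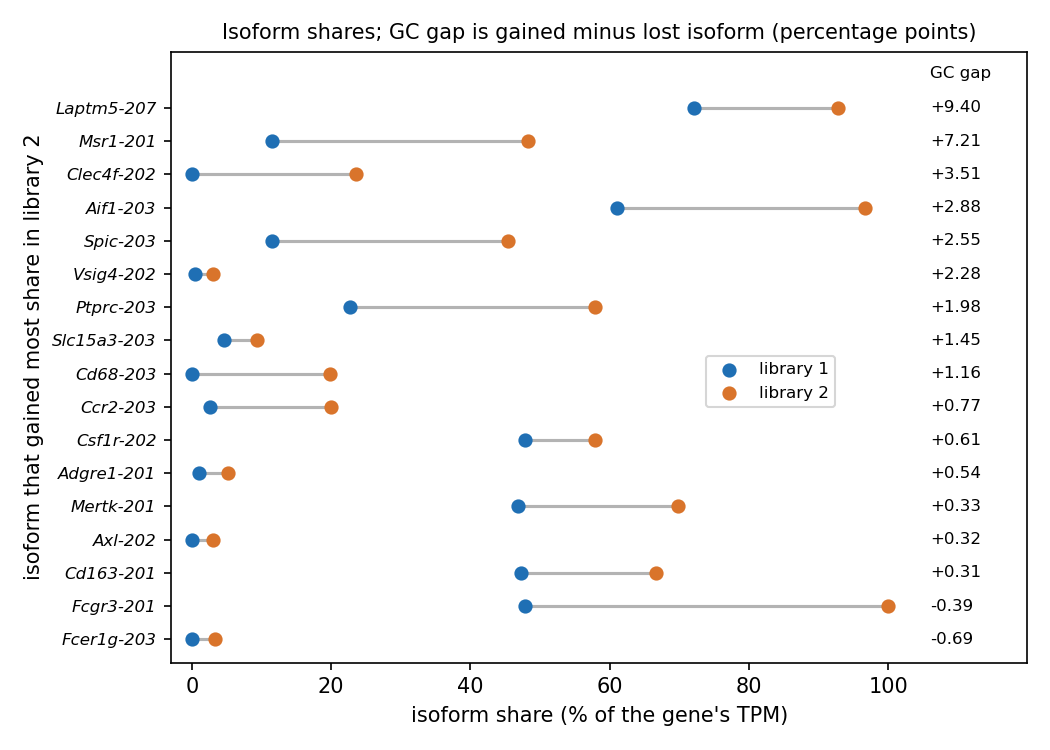
Share of the gene's TPM (%) held in library 1 (blue) and library 2 (orange) by the isoform that gained most in library 2, for 17 macrophage genes, with the GC content of that isoform minus that of the isoform that lost most at the right. The gap is positive in 15 of 17 genes, and the widest gaps are those of Laptm5 and Msr1.

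Other macrophage genes, chosen as a list apart from the members, gave a like picture. At 1 TPM, 18 of 25 were detected in both libraries, and of 24 tested 11 were called higher in library 2 (32.6% over all genes) and 6 lower (23.6%). With the GC curve subtracted 1 was called higher (6.64% of all genes) and 1 lower (7.35%). Total-count scaling gave 12 higher (41.8%) and 0 lower (7.46%). Ctsc, the protease cathepsin C, read 132 TPM in library 1 against 118 in library 2, and Slc40a1, the iron exporter ferroportin, 85.4 and 71.9. Both were called lower (log2 folds -1.08 and -1.15). Fcna, a ficolin of the complement system, read 13.4 and 39.0 TPM, and C1qb, a chain of complement C1q, 2.08 and 49.9. Both were called higher (log2 folds 1.79 and 3.67). Ctsc and Slc40a1 have a GC content of 43.5% and 43.6%, Fcna and C1qb of 54.9% and 57.4%. Ctsc and Slc40a1 are also made by other liver cells.

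Transcription factors known from Kupffer cells were detected in both libraries in 12 of 15 cases. Of 14 tested, 7 were called higher (32.6% over all genes) and 4 lower (23.6%). With the GC curve subtracted 2 were called higher (6.64% of all genes) and 4 lower (7.35%). Total-count scaling gave 7 higher (41.8%) and 0 lower (7.46%). Id3, a factor needed for Kupffer cell development, read 5.83 and 121 TPM (log2 fold 3.75). Nr1h3, the oxysterol receptor LXRα, read 1.75 and 73.2 TPM (log2 fold 4.48), and its partner Rxra 9.87 and 101 (log2 fold 2.42). With the GC curve subtracted the log2 folds were 1.38 for Id3, 1.78 for Nr1h3 and -0.38 for Rxra. Nr1h3 and Rxra are expressed in hepatocytes too. Spi1, named after its values were seen, read 1.29 and 4.14 TPM, and Irf8, a factor of the monocyte and macrophage lineage, 0.24 and 2.66. Both were called higher, while Spic was called lower.

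Genes listed as ligands and partners, some of receptors outside the members, were detected in both libraries in 12 of 21 cases. Of 19 tested 12 were called higher (32.6% over all genes) and 4 lower (23.6%). With the GC curve subtracted 2 were called higher (6.64% of all genes) and 2 lower (7.35%). Total-count scaling gave 13 higher (41.8%) and 2 lower (7.46%). Csf1, the growth factor read by Csf1r, stood at 1.78 and 4.70 TPM, and its alternative Il34 at 0.06 and 1.79. Hp, the haptoglobin whose complex with haemoglobin Cd163 takes up, read 45.5 and 1512 TPM (log2 fold 4.16). C3, the source of the fragments that Vsig4 binds, read 1370.4 and 3059 TPM (log2 fold 1.69). Ccl2, the ligand of Ccr2, read 1.06 and 1.04 TPM. Cx3cl1, the ligand of Cx3cr1, read 0.01 and 0.31 TPM from 1 and 15 counts.

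Markers of other cells that whole liver holds were read beside the members. Of 13 sinusoidal endothelial genes 13 were detected in both libraries, as were 10 of 10 hepatocyte genes and 7 of 11 stellate cell genes. Of 12 monocyte genes 2 were detected in both, Fn1 and Plac8, and hepatocytes secrete the fibronectin of Fn1. The summed TPM of the monocyte list was 113 in library 1 and 422 in library 2, of which Fn1 gave 105 and 400. Of 12 neutrophil genes 1 was detected in both, S100a8 at 2.30 and 1.89 TPM, while Ly6g, Mpo and Camp had 0 counts in both libraries. Of 11 dendritic cell genes 2 were detected in both, Bst2 and Zbtb46. The summed TPM of the dendritic list was 14.0 in library 1 and 214 in library 2, of which Bst2, an interferon-induced gene of many cell types, gave 11.0 and 207, while Flt3 read 0.06 and 0.15 TPM. Of 16 T, B and NK cell genes 0 reached 1 TPM in both, and of 6 mast cell and basophil genes 0 did. Of the T, B and NK cell genes 4 passed 1 TPM in 1 library. Neutrophils or lymphocytes also express Ptprc, Fcer1g, Tyrobp and Itgam, and their part in the levels of these members was not tested.

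**Figure D4:**
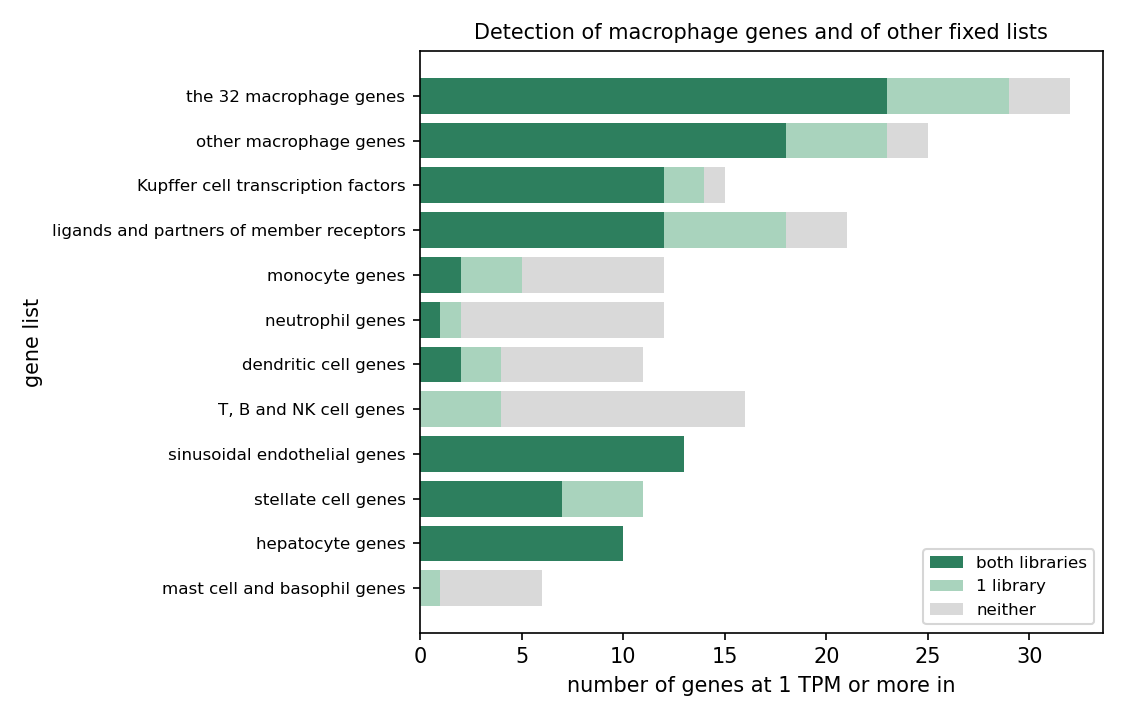
Number of genes of each list that reached 1 TPM in both libraries (dark green), in 1 library (light green) or in neither (grey). The 32 macrophage genes, the other macrophage genes and the endothelial, stellate and hepatocyte lists are mostly dark, and the monocyte, neutrophil, dendritic, lymphocyte and mast cell lists mostly grey.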

How the data were processed

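The 32 members and the gene lists were chosen with earlier results of these data known. Per the file headers and the deposited descriptions, values rest on mm10 with annotation M4. No source used here names the quantification tool, the aligner or the strandedness of counting. The authors deposited expected counts (estimated, not normalised), TPM and FPKM (normalised to length and library), isoform shares in percent of a gene's TPM, and interval bounds of TPM, used as a signal whose level is not stated. The SD of a count and these bounds are the authors' deposited estimates. Of the members, 28 TPM values in library 1 and 27 in library 2 lay inside their own deposited bounds (outside in 14.3% and 16.1% of tested genes). The bounds of the 2 libraries were apart in 23 of 32 members and 67.2% of tested genes.

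From these files, expected counts were rounded to whole numbers, a minimum of 20 over both libraries was applied, and TMM factors were computed in edgeR 4.0.16 (0.818 and 1.22). Since 1 library a side leaves edgeR's quasi-likelihood test without residual degrees of freedom, genes were tested with two-sided exact binomial tests and Benjamini-Hochberg adjustment over 12728 genes, called at an adjusted p of 0.05 and a log2 fold of 1 (prior count 0.5, 95% exact intervals). The procedure was tested on simulated data. Symbols, coordinates and transcript GC content (weighted by TPM) are from GENCODE M21 and promoters from RefSeq. The GC curve is a lowess (span 0.3, statsmodels 0.14.6). A gene counted as detected at 1 TPM. All members could be named, as well as up to 5 of the highest and 3 of the lowest genes of each other list. All ligands and partners could be named too, as could the isoforms whose lead changed and the 8 largest isoform changes. Genes and isoforms outside that rule are marked in the text. Some genes, such as Mrc1 and Fn1, are in more than 1 list. Alternatives were scaling by total count, DESeq2 1.42.0 size factors, TMM without mitochondrial genes, the GC curve, other count minimums, prior counts, detection levels and tests.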

Additional observations from a re-analysis of the deposited data

How the results depend on the processing

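Of 264 alternative values 203 were classed as the same as the main setting. Some are counts or shares without a direction, and 15 members called higher beside 11 was classed as the same. Folds counted as the same where direction and side of the threshold were kept. DESeq2 size factors, TMM without mitochondrial genes, no count minimum and a prior count of 2 kept both for 31 of 31 member folds each. Total-count scaling kept both for 17 of 31 and the GC curve for 9 of 31. Scaling by total count, which shifts all log2 folds by 0.57, gave 15 members higher and 1 lower (41.8% and 7.46% of all genes), with a median member log2 fold of 0.97. It turned the log2 folds of Il18bp to 0.53, Adgre1 to 0.26, Cd163 to 0.29 and Cx3cr1 to 0.16. The GC curve left 3 calls, 0 higher (6.64% of all genes) and 3 lower (7.35%), and a median of 0.25. It turned the log2 folds of Hpgd to 0.12, Fcer1g to -0.82, Msr1 to 0.28, Adgre1 to 0.16, Axl to -1.20, Lgals3 to -1.86, Timd4 to 0.27, Ptprc to 0.39, Slc15a3 to -1.14, Tlr4 to 0.32 and Ccr2 to 0.10. A count minimum of 200 left 17 members tested and 8 called. Of the 17, 5 were called higher (31.4% of all genes) and 3 lower (22.2%), and the median log2 fold was 0.051 (Il18bp 0.051). Here fewer members were tested. The median was 0.52 with no minimum and 1.32 as a ratio of deposited TPM, an alternative chosen after seeing the data. At 5 TPM 9 members were detected in both libraries. Ordering by expected count kept 6 of the 10 highest members. The summed level averaged 0.0905% of nuclear protein-coding TPM, 0.0661% of counts, and 0.0275% of TPM without Hpgd. The leading isoform was the same in 12 of 18 members at 1 TPM and 3 of 3 at 10 TPM. Leaving out 1 library at a time gave 25 to 27 members detected, 8 to 9 of the 10 highest members kept and a summed share of 0.0392% to 0.0565%. Beyond the settings themselves, the cause was not tested. No paired analysis was possible because the series has 1 group. Precision was limited by depth for the 15 members with under 50 counts in either library.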
